A study of Mus musculus with 10 samples.

Results

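The 7 genes described here encode the myosin heavy chain, sarcomeric actin and troponin I isoforms whose proportions change in the mammalian heart around birth and under load: *Myh6*, *Myh7*, *Myh7b*, *Acta1*, *Actc1*, *Tnni1* and *Tnni3*. They were chosen by gene name, and each matched 1 row among the 54532 genes of the table. The table holds fragments scaled to gene length and library size (FPKM) for 10 hearts, of which 5 belong to vehicle control mice and 5 to the MEKi group, and the comparison asks how the isoform make-up of the heart stood after MEK inhibition. All 10 hearts came from Rit1 M90I/+ mice, which carry the Noonan syndrome-associated M90I variant of the small GTPase RIT1 in the germline after a cross of conditional Rit1 M90I males with cytomegalovirus-Cre deleter females. MEKi mice received the allosteric MEK1/MEK2 inhibitor trametinib once a day at 1 mg/kg for 20 weeks from 4 weeks of age, and vehicle control mice were kept for the same time. There were no hearts without the variant, so every value is a level within the mutant genotype, and the part of the heart taken for RNA was not stated.

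The thick filament motor of the mouse heart is a myosin heavy chain dimer. The fast α chain (*Myh6*) takes over from the slow β chain (*Myh7*) in the ventricle around birth, and a return of *Myh7* in the adult is a textbook sign of hypertrophy. In the thin filament, cardiac α-actin (*Actc1*) is the adult form, and skeletal α-actin (*Acta1*) is used by the immature and the overloaded heart. The inhibitory subunit of troponin switches from the slow skeletal form (*Tnni1*) of the fetal heart to the cardiac form (*Tnni3*), which has an amino-terminal extension that protein kinase A phosphorylates.

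*Myh6* (chromosome 14, 54941921 to 54966927, minus strand) and *Myh7* (chromosome 14, 54970684 to 54994626, minus strand) lie head to tail in GRCm38, with 3756 bases between them. *Myh7b* (chromosome 2, 155611212 to 155634307, plus strand) is their distant relative. These myosin genes each hold a microRNA in an intron. The positions in the table are those of GENCODE M21 for 7 of 7 members. The mature microRNAs are shown because they tie the loci together, taken from RefSeq (GRCm38.p6) and written 5′ to 3′ with the seed (bases 2 to 8) in capitals.
miR-208a-3p: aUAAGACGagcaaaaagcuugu
miR-208b-3p: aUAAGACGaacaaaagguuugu
miR-499-5p: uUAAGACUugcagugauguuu
The first lies in intron 29 of *Myh6*, the second in intron 31 of *Myh7* and the third in intron 19 of *Myh7b*. miR-208a-3p and miR-208b-3p have the same seed and 19 identical bases of 22, whereas the seed of miR-499-5p ends in another base.

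Isoforms of a pair can be so alike in sequence that reads are hard to assign, so the coding sequences of GENCODE M21 were aligned to see how far this holds for each pair. *Myh6* and *Myh7* were identical at 91.7% of 5803 aligned coding bases, and their longest identical run was 245 bases. *Acta1* and *Actc1* were identical at 86.2% of 1134 bases, with no identical run longer than 29 bases. *Tnni1* and *Tnni3* were identical at 68.5% of 533 aligned bases, with no identical run longer than 21 bases. The first 90 coding bases of the closest pairs are shown with the bases that differ within a pair in capitals, 20 in the myosins and 14 in the actins.
Myh6: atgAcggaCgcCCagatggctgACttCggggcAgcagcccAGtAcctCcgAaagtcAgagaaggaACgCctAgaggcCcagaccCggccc
Myh7: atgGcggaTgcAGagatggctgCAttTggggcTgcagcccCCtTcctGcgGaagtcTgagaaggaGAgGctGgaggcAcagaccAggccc
Acta1: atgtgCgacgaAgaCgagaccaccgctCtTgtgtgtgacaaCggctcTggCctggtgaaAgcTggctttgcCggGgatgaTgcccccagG
Actc1: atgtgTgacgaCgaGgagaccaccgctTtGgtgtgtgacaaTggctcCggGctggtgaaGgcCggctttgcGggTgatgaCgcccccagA
How fragments from shared stretches were divided between *Myh6* and *Myh7* was not given in the sources used here. *Myh7* made up from 0.718 to 3.46% of the 2 transcripts by FPKM, so a share of *Myh6* fragments assigned to it would weigh more on *Myh7* than the reverse.

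The adult isoforms dominated every heart. Over the 10 hearts the mean level was 5454 FPKM for *Actc1*, 2804 FPKM for *Tnni3* and 2269 FPKM for *Myh6*, which placed them at ranks 12, 18 and 24 of 54532 genes. The remaining members were far lower. Their means were 104.9 FPKM for *Acta1* (rank 431), 30.8 FPKM for *Myh7* (rank 1206), 6.33 FPKM for *Myh7b* (rank 4402) and 0.241 FPKM for *Tnni1* (rank 14402). Each gene in this order was above the next in 10 of 10 hearts, with 1 exception: *Acta1* exceeded *Myh7* in 8 of 10, and MEKi hearts 1 and 5 had the reverse order. Together the 7 genes accounted for 3.60 to 4.55% of nuclear fragments in the vehicle group and 3.70 to 4.83% in the MEKi group.

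**Figure D1:**
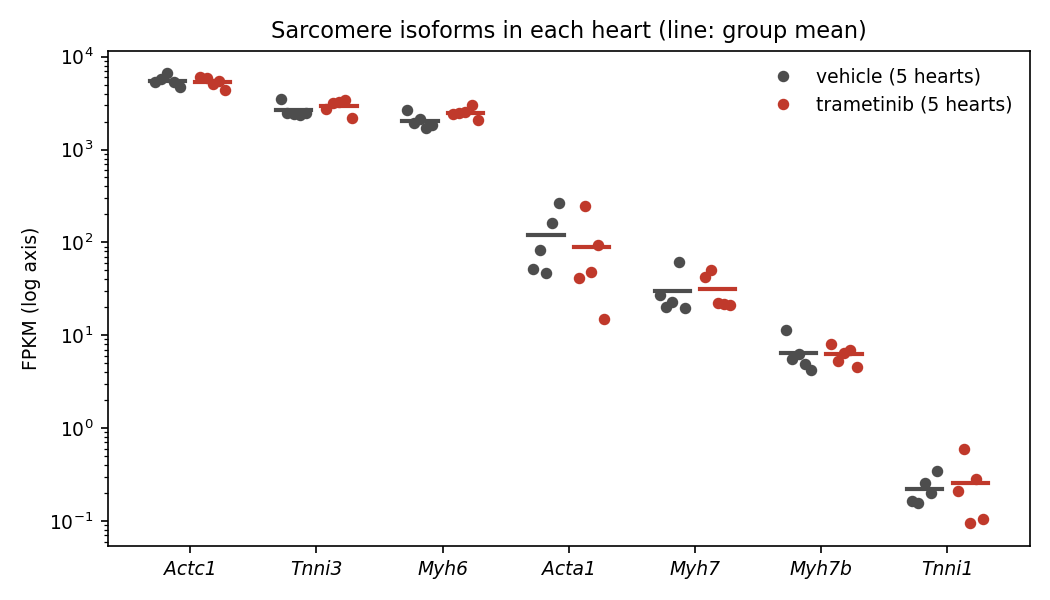
FPKM of the 7 isoforms on a log axis, 1 point per heart, grey for 5 vehicle hearts and red for 5 MEKi hearts, with a line at each group mean. The adult isoforms *Actc1*, *Tnni3* and *Myh6* sit between 1696 and 6626 FPKM, *Tnni1* stays under 0.6 FPKM, and the groups overlap for each gene.

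No member passed the test between the groups. Values were compared as log2(FPKM + 0.1) in a limma fit across all 12602 genes whose mean reached 0.5 FPKM, which left out *Tnni1* and kept 6 of 7 members. With Benjamini-Hochberg adjustment, 0 of 6 members passed a threshold of 0.05, against 0.0794% of all genes tested. That share is 10 genes, and the sex-linked *Ddx3y*, *Eif2s3y*, *Xist* and *Uty* were among them. At an unadjusted limma p under 0.05 it was again 0 of 6 in this fit, against 7.62% of all genes. The 2 groups overlapped for 7 of 7 members, and they did not overlap for 1.64% of the genes tested. Transcripts of the X-inactivation gene *Xist* were at 5.86 ± 0.671 FPKM in MEKi hearts (SD, n = 5) and at most 2 fragments in any vehicle heart. Those of the Y-linked gene *Ddx3y* were at 0 in MEKi hearts and at 11.2 ± 0.713 FPKM in vehicle hearts (SD, n = 5). By these transcripts each MEKi heart had a female pattern and each vehicle heart a male pattern. Treatment and sex therefore cannot be told apart in any of these differences. In bulk tissue, fewer cells of a type and less RNA per cell cannot be told apart either.

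*Myh6*, the adult α chain, came nearest to a difference. Vehicle hearts 1 to 5 had 2639.6, 1934, 2122, 1696 and 1827 FPKM, and MEKi hearts 1 to 5 had 2390.5, 2459.5, 2563, 2994 and 2065 FPKM. Vehicle heart 1 was above 4 of 5 MEKi hearts, whereas the other 4 vehicle hearts were close to or below the lowest MEKi heart. The group means were 2044 ± 368 FPKM and 2494 ± 336 FPKM (SD, n = 5), a log2 fold change of 0.29 (SE, 0.14), for which limma gave an adjusted p of 0.665 with Benjamini-Hochberg adjustment and an unadjusted p of 0.0644. The 95% interval of the log2 fold change ran from -0.021 to 0.61. The unadjusted limma p depended on the setting. It was 0.0291 on a TPM scale, 0.0169 with quantile normalization, 0.0154 with array weights and 0.0471 with voom. Without vehicle heart 1 it was 0.0109, and without MEKi heart 5 it was 0.0320. Under the other alternatives it was above 0.05, up to 0.387 without the hearts high for atrial markers. The lowest adjusted p under any alternative was 0.395. On the TPM scale the median log2 fold change over all genes tested rose from 0.011 to 0.088. The log2 fold change of *Myh6* moved from 0.29 to 0.37 on that scale.

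*Myh7*, the fetal and stress β chain, was set apart by single hearts. Its level was 27.3, 20.2, 22.8, 60.9 and 19.5 FPKM in vehicle hearts 1 to 5 and 42.4, 50.1, 22.3, 21.6 and 21.2 FPKM in MEKi hearts 1 to 5. The remaining 7 hearts lay between 19.5 and 27.3 FPKM, and vehicle heart 4 and MEKi hearts 1 and 2 stood above them. The group means of 30.1 ± 17.4 and 31.5 ± 13.7 FPKM (SD, n = 5) gave a log2 fold change of 0.11 (SE, 0.34) and, in the limma fit with Benjamini-Hochberg adjustment, an adjusted p of 0.961. The direction of this small value turned when vehicle heart 5 or MEKi heart 1 or 2 was left out, to between -0.085 and -0.012.

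The ratio *Myh7*/*Myh6* removes library size from the comparison. For each 1000 FPKM of *Myh6*, the vehicle hearts had 10.3, 10.4, 10.8, 35.9 and 10.7 FPKM of *Myh7*, and the MEKi hearts had 17.8, 20.4, 8.69, 7.23 and 10.3. The ratio was nearly the same in 4 of 5 vehicle hearts, vehicle heart 4 stood far above, and MEKi hearts lay on both sides of the 4. On the log2 scale the ratio was -6.21 ± 0.79 in vehicle and -6.39 ± 0.65 in MEKi hearts (SD, n = 5), a difference of -0.19, with p = 0.690 in a two-sided exact permutation test and 0.706 after Benjamini-Hochberg adjustment over 4 ratios. The exact rank-based interval of the difference (confidence, 96.8%) ran from -1.80 to 0.93. Without vehicle heart 4 the difference was 0.17, in the other direction.

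**Figure D2:**
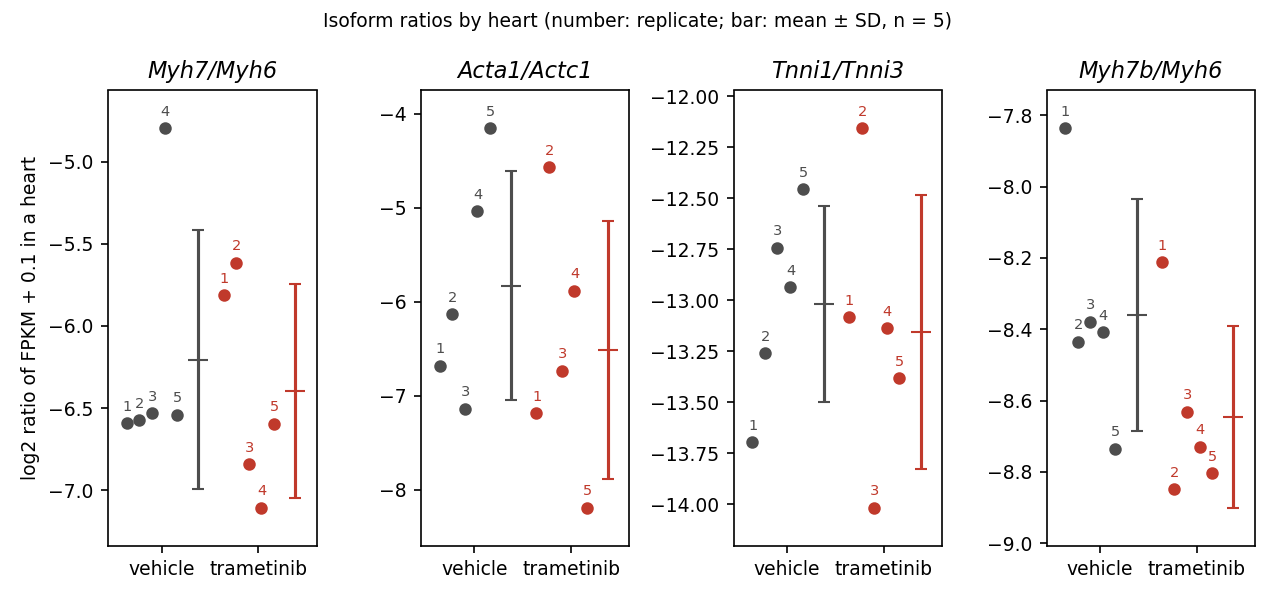
Log2 ratio of (FPKM + 0.1) within each heart for 4 isoform pairs, with replicate numbers beside the points and bars for the mean ± SD of 5 hearts. Vehicle heart 4 stands at -4.80 for *Myh7*/*Myh6* against -6.59 to -6.53 in the other vehicle hearts, and the groups overlap in each panel.

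*Myh7b*, an ancient sarcomeric heavy chain gene whose heart transcripts are known chiefly as the host of miR-499, was at 11.4, 5.49, 6.28, 4.89 and 4.18 FPKM in vehicle hearts 1 to 5. In MEKi hearts 1 to 5 it was at 7.96, 5.24, 6.36, 6.95 and 4.52 FPKM. Vehicle heart 1 was the highest of the 10, and the other hearts of both groups shared 1 range. The log2 fold change was 0.0080 (SE, 0.25; limma adjusted p = 0.995 with Benjamini-Hochberg adjustment). Relative to *Myh6* the level of *Myh7b* was lower in MEKi hearts, at 3.33, 2.13, 2.48, 2.32 and 2.19 FPKM per 1000 FPKM of *Myh6* against 4.34, 2.84, 2.96, 2.88 and 2.29 in vehicle hearts. MEKi heart 1 and vehicle heart 5 crossed the otherwise separate groups. The difference in log2 ratio was -0.29 (interval, -0.89 to 0.20), with p = 0.159 in the exact permutation test and 0.635 after Benjamini-Hochberg adjustment over 4 ratios. Without MEKi heart 1 the exact permutation p was 0.0476, and 0.190 after adjustment.

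RNAs from within the myosin loci were also in the table. *Mhrt*, a long noncoding RNA that runs antisense to *Myh7* and overlaps the gene over 3666 bases, was at 5.27 to 13.9 FPKM in vehicle hearts and 8.18 to 12.1 FPKM in MEKi hearts. Whether strand was used in counting was not given in the sources used here, so reads of *Mhrt* and of *Myh7* cannot be told apart where they overlap. *Mir208b*, the precursor within the *Myh7* intron, had from 16 to 116 fragments per heart, and 14.9 to 89.5 FPKM in vehicle and 25.6 to 79.2 FPKM in MEKi hearts. Over the 10 hearts its log2 level had Pearson r = -0.024 with its host *Myh7* and r = 0.81 with *Myh6* (Spearman rho, 0.091 and 0.83), where all points share 1 library per heart. Vehicle heart 4, with the highest *Myh7*, had the lowest *Mir208b*. No heart had over 7 fragments of *Mir208a*, and *Mir499* had none, which allows up to 3 fragments per heart by counting error alone. Fragments on such short genes in a poly(A)-selected library are not a measure of the mature microRNAs. Of these 4 RNAs, 3 passed the filter and 0 passed the threshold.

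*Acta1*, skeletal α-actin, varied more between hearts than any other member past the filter. It was at 51.3, 82.2, 46.9, 161.8 and 262.3 FPKM in vehicle hearts 1 to 5 and at 40.9, 246.6, 48.1, 93.7 and 14.9 FPKM in MEKi hearts 1 to 5. The highest heart exceeded the lowest 17.6-fold, with vehicle hearts 4 and 5 and MEKi heart 2 at the top and MEKi heart 5 at the bottom. Its residual SD of 1.30 on the log2 scale was exceeded by 1.74% of the genes tested, and the median gene had 0.246. The group means of 120.9 ± 91.5 and 88.9 ± 92.7 FPKM (SD, n = 5) corresponded to a log2 fold change of -0.72 (SE, 0.68), with an adjusted p of 0.831 in the limma fit with Benjamini-Hochberg adjustment.

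*Actc1*, cardiac α-actin, was the steadiest member. Vehicle hearts 1 to 5 had 5270.45, 5772, 6626, 5307 and 4670.3 FPKM, and MEKi hearts 1 to 5 had 5986, 5851, 5137, 5532 and 4384 FPKM. The highest heart was only 1.51-fold above the lowest, and the groups covered much the same range. Its log2 fold change was -0.039 (SE, 0.14; limma adjusted p = 0.963 with Benjamini-Hochberg adjustment; 95% interval, -0.34 to 0.26), and on a TPM scale it was 0.039, in the other direction.

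The spread of *Acta1*/*Actc1* therefore followed *Acta1*. For each 1000 FPKM of *Actc1*, the vehicle hearts had 9.73, 14.2, 7.08, 30.5 and 56.2 FPKM of *Acta1*, and the MEKi hearts had 6.84, 42.2, 9.37, 16.9 and 3.39. The highest 3 and the lowest heart were the same as for *Acta1* alone, and both groups held high and low hearts. The log2 ratio was -5.83 ± 1.22 in vehicle and -6.51 ± 1.37 in MEKi hearts (SD, n = 5). The difference of -0.69 had p = 0.421 in the exact permutation test and 0.706 after Benjamini-Hochberg adjustment over 4 ratios, with an exact interval from -3.03 to 1.56. It ranged from -1.17 without MEKi heart 2 to -0.27 without MEKi heart 5 or without vehicle heart 5.

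The promoters of the myosin and actin pairs are shown because the 2 partners of each pair stood at very different levels in the same hearts. They are RefSeq sequences (GRCm38.p6, minus strand, 5′ to 3′) from the 250 bases before a RefSeq transcript start, without bases that GENCODE M21 has in an exon next to that start. The RefSeq start of *Myh6* lies 320 bases and that of *Actc1* 673 bases inside the gene span of the table, so these windows are upstream of that start and not of the whole gene. Capitals mark matches to the CArG box (the binding motif of serum response factor), to CATTCC (the MCAT motif of TEAD factors) or to TATAAA on either strand, and no 2 matches overlap.
Acta1, chr8:123894776-123895025: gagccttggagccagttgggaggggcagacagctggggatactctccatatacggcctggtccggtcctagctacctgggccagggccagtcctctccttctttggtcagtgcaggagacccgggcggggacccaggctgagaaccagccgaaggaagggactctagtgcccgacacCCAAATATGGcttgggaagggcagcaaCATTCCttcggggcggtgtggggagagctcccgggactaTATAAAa
Actc1, chr2:114052888-114053125: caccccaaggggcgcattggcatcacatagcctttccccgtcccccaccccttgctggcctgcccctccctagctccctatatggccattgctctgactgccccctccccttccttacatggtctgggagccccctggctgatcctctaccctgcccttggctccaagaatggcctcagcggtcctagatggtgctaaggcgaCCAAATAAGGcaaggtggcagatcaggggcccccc
Myh6, chr14:54966642-54966857: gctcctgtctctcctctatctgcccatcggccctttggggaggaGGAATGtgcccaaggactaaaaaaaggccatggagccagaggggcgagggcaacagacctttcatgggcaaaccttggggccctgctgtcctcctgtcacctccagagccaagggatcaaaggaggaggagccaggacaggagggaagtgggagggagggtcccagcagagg
Myh7, chr14:54994627-54994876: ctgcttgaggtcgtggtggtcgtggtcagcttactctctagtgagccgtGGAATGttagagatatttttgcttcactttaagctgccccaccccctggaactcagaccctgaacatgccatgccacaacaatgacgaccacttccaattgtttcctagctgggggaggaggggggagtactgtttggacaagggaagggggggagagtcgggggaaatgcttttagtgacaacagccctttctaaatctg
Within 250 bases, *Acta1* held 1 CArG box, 1 MCAT motif and 1 TATAAA, and *Actc1* held 1 CArG box. *Myh6* and *Myh7* held 1 MCAT motif each and neither of the other motifs, and *Myh7b*, *Tnni1* and *Tnni3* held none of the 3. For *Tnni1* and *Tnni3* the RefSeq start is 19987 and 1701 bases inside the gene of the table, so their windows are internal. Among 32851 RefSeq promoters of the same length, 1.47% held a CArG box, 12.6% the MCAT motif and 12.4% TATAAA. A match is a stretch of letters and was not tested as a binding site.

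*Tnni3*, cardiac troponin I, was at 3521, 2493, 2429, 2349.9 and 2494 FPKM in vehicle hearts 1 to 5 and at 2700.5, 3195, 3228, 3421 and 2203 FPKM in MEKi hearts 1 to 5. Vehicle heart 1 was above each MEKi heart, the other vehicle hearts were close together, and MEKi heart 5 was the lowest of the 10. The log2 fold change was 0.15 (SE, 0.16; limma adjusted p = 0.861 with Benjamini-Hochberg adjustment; 95% interval, -0.19 to 0.49).

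*Tnni1*, slow skeletal troponin I, was close to the limit of these libraries. It had 10, 8, 13, 10 and 18 fragments in vehicle hearts 1 to 5 and 13, 37, 5, 18 and 6 in MEKi hearts 1 to 5, or 0.0946 to 0.599 FPKM. MEKi heart 2 was the highest and MEKi hearts 3 and 5 the lowest, so the MEKi hearts enclosed the vehicle hearts. With every gene above 0 in the limma fit (24630 genes), its log2 fold change was 0.012 (SE, 0.36; adjusted p = 0.995 with Benjamini-Hochberg adjustment). *Tnni1* made up from 0.00293 to 0.0187% of the 2 troponin I transcripts by FPKM. The *Tnni1*/*Tnni3* log2 ratio was -13.02 ± 0.48 in vehicle and -13.16 ± 0.67 in MEKi hearts (SD, n = 5), and the difference of -0.14 (interval, -1.08 to 0.78) had an exact permutation p of 0.706, unchanged by adjustment over 4 ratios. The direction turned without vehicle heart 5 (0.0030) or MEKi heart 3 (0.078).

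**Figure D3:**
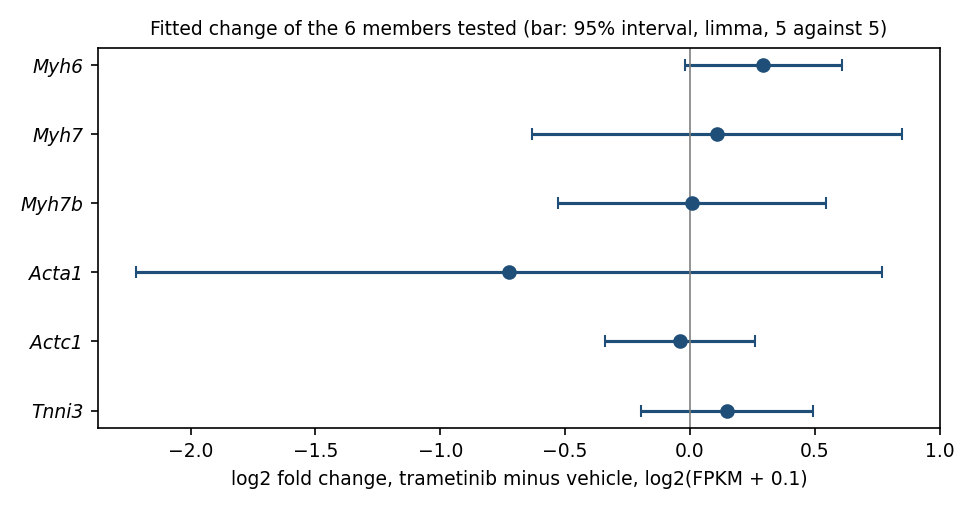
Log2 fold change of the 6 members tested, MEKi minus vehicle on the log2(FPKM + 0.1) scale, with 95% intervals from limma. Each interval includes 0, and that of *Acta1* (-2.22 to 0.77) is the widest.

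The hearts with high *Acta1* were also the hearts with high atrial transcripts. *Myl7*, the atrial regulatory light chain, was at 615.2, 258.3 and 519.5 FPKM in vehicle hearts 4 and 5 and MEKi heart 2, and at 1.58 to 27.0 FPKM in the other 7 hearts. *Sln* (sarcolipin), *Myl4*, *Dkk3* and *Stard10* were likewise highest in these 3 hearts, which makes 5 of 6 atrial markers. *Bmp10* did not follow this order: it was low throughout, highest in vehicle heart 2 (1.41 FPKM) and 0 in vehicle heart 5. The summed level of the 6 markers was 13.7 to 898.2 FPKM in vehicle and 17.5 to 740.4 FPKM in MEKi hearts. *Acta1* was at 161.8 to 262.3 FPKM in the 3 hearts and at 14.9 to 93.7 FPKM in the other 7, without overlap. *Myh7* had its 2 highest values in these hearts but its lowest in vehicle heart 5, and *Tnni1* had its 2 highest values there. Other markers also stood apart in some of these hearts. The 3 red cell markers summed to 21066 and 23823 FPKM in vehicle hearts 4 and 5, against 2691 to 6909 FPKM in the other 8 hearts, MEKi heart 2 included. The 3 adipocyte markers summed to 91.7 and 89.4 FPKM in vehicle heart 4 and MEKi heart 2, against 0.365 to 28.1 FPKM in the other hearts, of which vehicle heart 5 had 0.432 FPKM. The part of atrial tissue, blood or fat in these values was not tested.

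**Figure D4:**
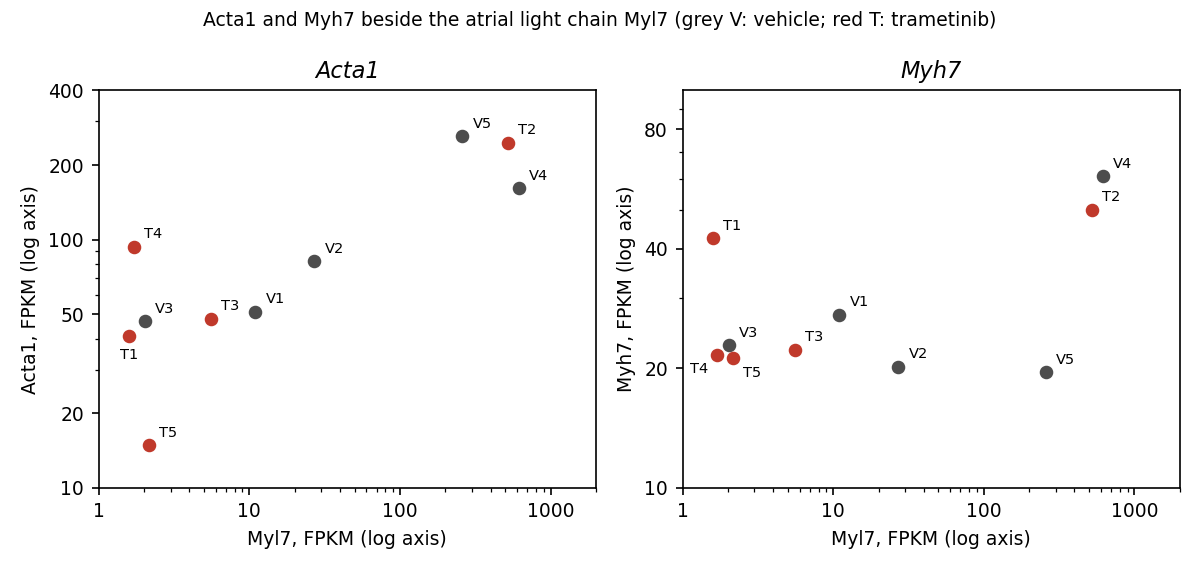
FPKM of *Acta1* (left) and *Myh7* (right) against FPKM of the atrial light chain *Myl7* in each heart, both axes log, with V for vehicle and T for MEKi hearts and the replicate number. V4, V5 and T2 lie at the right with the highest *Acta1*, whereas *Myh7* is high in V4, T2 and T1 and low in V5.

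Leaving out these 3 hearts left too few assignments for the exact permutation test to give a p under 0.05, so it cannot decide about the ratios. With 3 vehicle and 4 MEKi hearts the difference was -0.023 for *Myh7*/*Myh6*, -0.35 for *Acta1*/*Actc1*, -0.17 for *Tnni1*/*Tnni3* and -0.38 for *Myh7b*/*Myh6* on the log2 scale. The exact permutation p lay between 0.171 and 0.857. The fitted log2 fold change of *Acta1* was -0.52 without these hearts. It was -0.047 (SE, 0.47) with the mean log2 level of *Sln*, *Myl7* and *Myl4* as a covariate in limma. The 9 skeletal muscle markers were at or near 0, and summed to 1.50 to 4.14 FPKM in vehicle and 1.65 to 3.42 FPKM in MEKi hearts, with *Myh2*, *Myh4* and *Tnnc2* at 0 in each heart. The 6 genes listed as ventricular markers were *Myl2*, *Myl3*, *Myh6*, *Actn2*, *Tnnt2* and *Ryr2*. They summed to 11063 to 16502.5 FPKM in vehicle and 10898 to 16166 FPKM in MEKi hearts. As *Myh6* is also a member, this sum is not independent of the members.

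The fetal-type ratios were related only loosely to each other. Over 10 hearts *Acta1*/*Actc1* and *Tnni1*/*Tnni3* had Pearson r = 0.63 (permutation p = 0.0497, or 0.149 after Benjamini-Hochberg adjustment over 3 pairs) and Spearman rho = 0.55 (permutation p = 0.105, adjusted 0.157). Without vehicle heart 5 and MEKi heart 2, the farthest from the median of *Acta1*/*Actc1*, r was 0.20, so the relation rests on those hearts. *Myh7*/*Myh6* and *Tnni1*/*Tnni3* had r = 0.43 (permutation p = 0.208, adjusted 0.310) and rho = 0.72 (permutation p = 0.0232, adjusted 0.0695), and r was 0.26 without vehicle heart 4 and MEKi heart 2. *Myh7*/*Myh6* and *Acta1*/*Actc1* had r = 0.36 (permutation p = 0.310, adjusted 0.310) and rho = 0.28 (permutation p = 0.429, adjusted 0.429), and r was -0.23 without the same 2 hearts. Centred on the group means, r was 0.62, 0.42 and 0.34 for the 3 pairs in this order. None of the relations passed adjustment.

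Of the 3 adult isoforms, *Myh6* and *Tnni3* had similar patterns from heart to heart, with r = 0.87 between their log2 levels over 10 hearts. *Actc1* had r = 0.21 with *Myh6* and r = 0.17 with *Tnni3*. *Myh7b* had r = 0.67 with *Myh6*. *Acta1* and *Tnni1* had r = 0.75, whereas *Myh6* and *Myh7* had r = -0.13 and *Acta1* and *Actc1* had r = 0.12. All values of a heart share its library, so these are descriptions. Among 10704 other genes whose mean reached 1 FPKM, the 3 most like *Myh6* were the mitochondrial genes *Idh3g* (r = 0.97, rho = 0.99), a subunit of isocitrate dehydrogenase, *Macrod1* (r = 0.95, rho = 0.95) and *Eci1* (r = 0.95, rho = 0.90), an enzyme of fatty acid oxidation. Among those most like *Myh7b* were *Dhrs7* (r = 0.90, rho = 0.83) and *Tufm* (r = 0.89, rho = 0.88), the mitochondrial elongation factor. Those most like *Acta1* were *Gm27252* (r = 0.94, rho = 0.90), *Mustn1* (r = 0.94, rho = 0.95), a musculoskeletal nuclear protein gene, and *Nnmt* (r = 0.94, rho = 0.79), nicotinamide N-methyltransferase. *Ccdc124*, *Chmp2a* and *Ilkap* were most like *Tnni3* (r from 0.95 to 0.97, rho from 0.87 to 0.93), and *Scaf1*, *Phyh* and *Tacc2* were most like *Actc1* (r from 0.87 to 0.91, rho from 0.73 to 0.85). *Rbm12*, *1810037I17Rik* and *Mfsd10* were nearest to *Myh7*, with r from 0.83 to 0.85 and rho from 0.48 to 0.70.

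The partners of the isoforms in the sarcomere were counted by list. Over 9 lists of related genes, 66 of 82 genes passed the filter, 0 had an adjusted p under 0.05 in the limma fit with Benjamini-Hochberg adjustment, and 9 of 66 (13.6%) had an unadjusted limma p under 0.05, against 7.62% of all genes tested. Of 8 other striated heavy chains only *Myh14* passed the filter (11.9 ± 2.49 and 14.5 ± 2.69 FPKM; log2 fold change, 0.29), and none passed the test. Among 3 nonmuscle and smooth muscle heavy chains, 1 was higher and 2 were lower in MEKi hearts, with *Myh9*, nonmuscle myosin IIA, at 8.60 ± 1.03 and 7.16 ± 0.263 FPKM (log2 fold change, -0.25; limma adjusted p = 0.563).

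Of 9 myosin light chains and binding proteins tested, 3 were higher and 6 lower in MEKi hearts, none past the threshold, with a median log2 fold change of -0.44 against 0.011 over all genes tested. *Myl7*, *Myl4* and *Mybphl*, all atrial, had log2 fold changes of -2.46, -2.23 and -1.27 with SEs above 1. *Myl1*, a light chain of embryonic and fast muscle, was at 20.9, 17.4, 17.0, 31.2 and 17.7 FPKM in vehicle hearts and 15.2, 14.6, 9.49, 6.28 and 9.97 FPKM in MEKi hearts. Each vehicle heart was above each MEKi heart. The log2 fold change was -0.93 (SE, 0.24), with an unadjusted limma p of 0.00252 and an adjusted p of 0.347 with Benjamini-Hochberg adjustment.

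Of the 4 other actins, 1 was higher and 3 were lower, with *Acta2*, smooth muscle α-actin, at 42.8 ± 13.3 and 55.7 ± 15.9 FPKM, the cytoplasmic *Actg1* at 83.7 ± 14.8 and 65.8 ± 6.85 FPKM, and *Actb* at 165.8 ± 33.6 and 130.4 ± 18.1 FPKM. None passed the threshold (limma adjusted p from 0.569 to 0.970 for the 4). Of 8 troponin and tropomyosin partners tested, 3 were higher and 5 lower and none passed; *Tpm4* had a log2 fold change of -0.33 (SE, 0.14) and *Tpm3* of -0.24 (SE, 0.11). Of 8 giant and Z-disc proteins tested, 6 were higher and 2 lower and none passed, with *Myom2*, an M-band protein, at 115.8 ± 24.5 and 145.7 ± 16.0 FPKM and *Ttn*, titin, at 15.0 ± 1.66 and 14.3 ± 1.14 FPKM.

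Among regulators known to act on isoform choice, 18 of 21 genes tested had a higher fitted mean in MEKi hearts and 3 a lower one. The median log2 fold change was 0.12 against 0.011 over all genes, and none passed the threshold. The share of all genes with a higher fitted mean was not counted. Markers of some cell types also leaned: 6 of 6 ventricular markers, *Myh6* among them, were higher (median, 0.11), as were 2 of 2 adipocyte markers tested (median, 0.97). In contrast, 5 of 5 atrial (median, -2.2), 3 of 3 red cell (median, -0.90), 5 of 5 endothelial and 4 of 4 macrophage markers tested were lower. Fibroblast markers were split, with 2 of 4 higher, and smooth and skeletal muscle markers also went both ways. None of the markers of these types passed the threshold. Whether the lean was particular to the regulators was not tested. *Thra*, the thyroid hormone receptor that activates *Myh6*, was at 12.0, 9.59, 10.5, 10.6 and 9.37 FPKM in vehicle hearts and at 14.0, 14.6, 12.4, 11.7 and 16.6 FPKM in MEKi hearts. The groups overlapped only at vehicle heart 1 and MEKi heart 4. The log2 fold change was 0.40 (SE, 0.11), with an adjusted p of 0.401 in the limma fit with Benjamini-Hochberg adjustment. *Mef2a*, a muscle transcription factor, was at 6.59 ± 0.629 and 8.16 ± 0.682 FPKM (log2 fold change, 0.31; adjusted p = 0.461), with each MEKi heart above each vehicle heart. *Rbm20*, a splicing regulator of titin, had 0.37 (SE, 0.17) and *Hopx* 0.24 (SE, 0.14).

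Of 9 hypertrophy and load markers tested, 4 were higher and 5 lower in MEKi hearts and none passed. *Xirp2*, a stretch-responsive actin-binding protein, was at 30.0 ± 4.67 and 21.6 ± 2.02 FPKM (log2 fold change, -0.46; limma adjusted p = 0.314). *Ankrd1* was at 820.3 ± 315 and 592.2 ± 95.1 FPKM (log2 fold change, -0.41; SE, 0.21). *Nppa*, atrial natriuretic peptide, ranged from 178.4 to 1298 FPKM in vehicle and from 118.8 to 453.9 FPKM in MEKi hearts. Its log2 fold change was -0.40 (SE, 0.54). The highest value was in vehicle heart 4, the heart with the highest *Myh7* and also the highest *Myl7*. Of the 3 highest *Nppa* values, 2 lay in the 3 hearts high for atrial markers. The part of atrial tissue in these values was not tested.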

How the data were processed

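RNA was sequenced from 10 hearts of Rit1 M90I/+ mice after poly(A) selection. The authors deposited 1 table of FPKM, which are fragment counts divided by gene length and library size, with 1 column per heart. The submitters' processing notes name fastp, STAR 2.5, HTSeq 0.6.1 and mm10, and the strand setting and annotation were not given in the sources used here. The study included both male and female littermates, and the labels give no sex. By *Xist* and *Ddx3y* the sequenced vehicle hearts all had a male pattern and the MEKi hearts all a female pattern. Multiplying the deposited FPKM by length gave whole numbers of 1 unit per heart (tolerance, 0.01 fragments), and so 13647167 to 16659254 fragments in vehicle and 14868373 to 18474002 in MEKi hearts. Limits from counts cover counting error only.

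Hearts were grouped by their labels. The members and gene lists were chosen with earlier results of these data known. Values were taken as log2(FPKM + 0.1), a scale that understates changes of low genes, and fitted with limma 3.58.1 in R 4.3.3 (lmFit, eBayes with a trend, two-sided) for genes whose mean reached 0.5 FPKM, adjusted after Benjamini-Hochberg at a threshold of 0.05. The groups' within-heart ratios were compared in an exact two-sided permutation test with 252 assignments (smallest possible p, 0.00794), with a Hodges-Lehmann interval, and their relations by 100000 permutations. Each replicate is 1 heart, and the p-values set a difference between the groups against the variation between hearts. Named genes were the 7 members, up to 4 genes by absolute fold change from each list, and the 3 genes most like each member over the 10 hearts (1 of them is not reported here); *Xist*, *Ddx3y* and the atrial, skeletal and ventricular markers were used to check the samples, and a few further values were named after they had been seen. Simulated data were used to test the fit. Coding sequences were aligned with Biopython 1.88 under Python 3.11.15 with scipy 1.17.1.

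The alternatives were pseudocounts of 0, 0.01 and 1, no filter, a minimum mean of 5 FPKM, a TPM scale, quantile normalization, eBayes without a trend or robust, array weights, voom on the recovered fragments, the replicate number as a block, atrial markers as a covariate, fragments without length, ranks, and leaving out each heart or the 3 hearts high for atrial markers. The atrial covariate was the mean log2 level of *Sln*, *Myl7* and *Myl4*.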

Additional observations from a re-analysis of the deposited data

Results flagged for a closer look

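In 4 of 22 groups of 5 hearts examined (7 members and 4 ratios in each treatment group), 1 heart lay farther from the others than Dixon's 95% limit allows. Chance gives about 1 in 20 where groups are independent and values normally distributed. The ratios share values with the members, and the members were examined as FPKM, so this count is not a test of an excess. *Myh7* in vehicle heart 4 was at 60.9 FPKM, against 19.5 to 27.3 FPKM in the other vehicle hearts. The log2 *Myh7*/*Myh6* ratio of the same heart was -4.80, against -6.59 to -6.53. *Myh7b* in vehicle heart 1 was at 11.4 FPKM, against 4.18 to 6.28 FPKM, and *Tnni3* in that heart was at 3521 FPKM, against 2349.9 to 2494 FPKM.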

How the results depend on the processing

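The count of members past the threshold was 0 under each of 23 alternatives. The count over all genes was 10, with the 4 sex-linked genes tested among them. It was 2 with a mean of at least 5 FPKM, 18 with array weights and 5 without the 3 hearts high for atrial markers. With each heart left out it was 5 to 13 (5 without vehicle heart 2 and 6 without vehicle heart 5). With each heart left out, the log2 difference ran from -0.38 to 0.17 for *Myh7*/*Myh6*, from -0.39 to 0.078 for *Tnni1*/*Tnni3* and from -0.39 to -0.16 for *Myh7b*/*Myh6*, and the log2 fold change ran from -0.085 to 0.40 for *Myh7*, from -0.12 to 0.24 for *Myh7b* and from -0.097 to 0.032 for *Actc1*. *Myh7b* was at -0.17 with the atrial markers as a covariate and at -0.21 without the 3 hearts, and *Actc1* at 0.039 on the TPM scale. The cause of these turns was not tested, and no test that gave them passed adjustment. *Myh6*, *Acta1* and *Tnni3* kept their direction under each of 23 alternatives, with log2 fold changes from 0.16 to 0.39, -1.24 to -0.047 and 0.038 to 0.26. With the replicate block 4 genes were called, and the *Myh7*/*Myh6* difference stayed at -0.19 (exact sign-flip permutation p = 0.812), whereas *Myh7b*/*Myh6*, lower in the MEKi heart in 5 of 5 same-numbered pairs, reached 0.0625, the smallest p possible (0.25 after adjustment over 4 ratios). Deviations of same-numbered hearts had correlations from -0.15 to -0.021 and no heart correlated best with its own number, so the samples share only a number. At 5 to 37 fragments per heart, *Tnni1* had the least depth of the members. The 95% interval of its log2 fold change without the filter ran from -0.78 to 0.81, so a change within that range could not be told from none.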
